A study of Mus musculus with 2 samples.

Results

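The genes described here are 31 members of the machinery that sets the electrical activity and the cytosolic calcium of a cell, taken by symbol out of 28692 genes counted in mouse pancreatic islets. They fall into 9 roles, namely KATP channel subunits, voltage-gated calcium channels, other potassium channels, TRPM cation channels, calcium pumps, calcium release channels, store-operated calcium entry, sodium channels and a sodium pump subunit. All 31 were found in both libraries. The list was made by function and the rule sets no level for its genes, but it was chosen with earlier results of these data known.

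In a beta cell, ATP made from glucose closes KATP channels, the membrane depolarises, voltage-gated calcium channels open, and the calcium that enters triggers the release of insulin granules. Potassium channels end each burst, while pumps in the endoplasmic reticulum and the plasma membrane remove calcium, and receptors for inositol trisphosphate (IP3) let it out of the endoplasmic reticulum again. Alpha and delta cells, which release glucagon and somatostatin, use the same kinds of channels, and the contractile cells of small vessels have a KATP channel built from other subunits.

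The study's subject is BAF60C, which Smarcd3 encodes and which belongs to BAF complexes that remodel chromatin. It holds 1 droplet library labelled BcBKO, which is described as a beta-cell-specific ablation made with Pdx1-cre (Cre recombinase under a promoter active in the embryonic pancreas and in adult beta cells), and 1 library of flox/flox islets. Islets of at least 3 mice were pooled for each library and dispersed with TrypLE, and RNA was tagged at its 3′ end with a cell barcode and a unique molecular identifier (UMI). Strain, sex, age and the floxed exons are not given in the sources used here, and neither is Cre in the flox/flox mice, so an effect of the transgene and of the ablation cannot be told apart. With 1 pooled library per genotype there is no replicate spread and no test. All intervals below are 95% intervals for counting error only, and "higher" and "lower" describe these 2 libraries.

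Libraries held 10775 (BcBKO) and 9438 (flox/flox) barcodes, of which 8504 and 7568 passed the cell filter, and 23 barcode sequences occur in both. Cells were classed by hormone shares or by UMIs of class-defining genes, which gave 3058 and 2750 beta cells with a median of 33172 and 38462 UMIs. Smarcd3 was not lower in beta cells of the library labelled BcBKO, with 71 UMIs (0.61 CPM, counts per 1000000 UMIs of the class) against 45 UMIs (0.374 CPM) in the flox/flox library. Tags from exons that Cre leaves in place are no check of the deletion. Of a list of 8 beta markers none was at 0 in beta cells, and Iapp, Nkx6-1, Slc2a2, G6pc2 and Ucn3 were highest there in both libraries. Mafa was at only 1.25 (BcBKO) and 0.782 CPM (flox/flox) in beta cells. Pdx1 was higher in delta (104 and 83.0 CPM) than in beta cells (63.3 and 47.1 CPM). Slc30a8 was higher in alpha (481 and 430 CPM) than in beta cells (346 and 400 CPM). Of the barcodes that met the mural definition, 498 of 665 (BcBKO) and 569 of 794 (flox/flox) also met the endothelial one and held Plvap, Pecam1 and Kdr of vessel walls beside Rgs5 and Notch3 of contractile cells. Scrublet marked 12 and 10 barcodes of the mural definition as doublets. Levels outside beta cells are therefore given for barcodes that met 1 definition only, and vascular levels also by the full definition. Delta barcodes of 1 definition also held Ppy, at 52985 (BcBKO) and 50330 CPM (flox/flox) beside 167660 and 171645 CPM of Sst. The rule caps Ppy in beta cells only. Of the delta markers, Hhex, Rbp4 and Ghsr were highest there in both libraries, Lepr was at 0, and Pcsk1 was lower than in beta cells. The part of Ppy-rich barcodes in delta levels was not tested. UMIs of beta-cell genes were counted in all classes: Ins1, Ins2, Slc2a2, G6pc2, Ucn3 and Nkx6-1 were in macrophages at 7.26% to 11.7% (BcBKO) and 6.58% to 14.0% (flox/flox) of their beta-cell level. Free RNA and doublets, which were kept, could both give such UMIs and were not told apart, and insulin outside beta cells is capped by the class rules. A member at or below those shares outside beta cells is not read as expressed there.

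The KATP channel is an octamer of a pore and a sulfonylurea receptor, and its genes lie as neighbouring pairs. Kcnj11, the pore Kir6.2 (chr7:46093953-46100764, minus strand, mm10), and Abcc8, the receptor SUR1 (chr7:46104523-46180033, minus strand), are 3758 bases apart. Kcnj8, the pore Kir6.1 (chr6:142564837-142571614, minus strand), and Abcc9, the receptor SUR2 (chr6:142587862-142702315, minus strand), are 16247 bases apart. The stretches before the RefSeq starts of Kcnj8 and Abcc9 are shown because both genes had their highest level in mural cells, and that of Trpm5 because it was the member highest in beta cells on every scale used. Each runs from 250 bases before to 50 bases after the start (GRCm38.p6, sense strand, all 3 genes on the minus strand), at chr6:142571565-142571864 for Kcnj8, chr6:142702225-142702524 for Abcc9 and chr7:143094593-143094892 for Trpm5.
Kcnj8: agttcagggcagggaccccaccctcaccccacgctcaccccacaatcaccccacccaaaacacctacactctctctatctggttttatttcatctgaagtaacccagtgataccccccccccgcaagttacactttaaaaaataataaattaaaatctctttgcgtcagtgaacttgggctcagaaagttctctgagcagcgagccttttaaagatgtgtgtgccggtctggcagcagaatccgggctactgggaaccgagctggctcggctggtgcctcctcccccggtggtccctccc
Abcc9: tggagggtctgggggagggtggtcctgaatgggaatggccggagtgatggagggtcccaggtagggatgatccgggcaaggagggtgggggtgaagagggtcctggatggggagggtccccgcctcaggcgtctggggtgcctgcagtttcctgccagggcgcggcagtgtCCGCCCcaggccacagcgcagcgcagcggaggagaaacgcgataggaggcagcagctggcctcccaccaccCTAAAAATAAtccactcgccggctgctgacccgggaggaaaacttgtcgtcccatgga
Trpm5: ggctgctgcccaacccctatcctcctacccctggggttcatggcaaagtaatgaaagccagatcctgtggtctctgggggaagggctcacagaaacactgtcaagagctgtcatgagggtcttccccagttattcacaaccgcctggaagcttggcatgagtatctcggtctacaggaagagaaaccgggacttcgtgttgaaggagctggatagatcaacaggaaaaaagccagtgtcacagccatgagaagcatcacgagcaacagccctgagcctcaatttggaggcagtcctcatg
Capitals mark matches, on either strand, to GGGCGG (the GC box), TATAAA (the TATA box), the MEF2 box and the CArG box, the last 2 being binding sequences of muscle transcription factors; the 4 motifs were chosen after the expression of these genes was known. Abcc9 held 1 GC box and 1 MEF2 box, and the MEF2 box began 8 bases before the start. Kcnj8 and Trpm5 held none of the 4. Among all 32851 RefSeq promoters of this length, 35.7% held a GC box, 13.6% a TATA box, 1.86% a MEF2 box and 1.63% a CArG box. A match is a run of letters and not a measured site.

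The receptor Abcc8 was an endocrine gene and Kcnj8 with Abcc9 were mural genes. Abcc8 had 136 CPM in BcBKO-labelled and 132 CPM in flox/flox beta cells, 294 and 278 CPM in alpha cells, and 444 and 435 CPM in delta cells. Hormone and mitochondrial genes took 70.9% and 72.2% of UMIs in beta cells but 36.6% and 35.6% in delta cells, so levels were also scaled to the remaining UMIs alone (written nCPM). On that scale Abcc8 had 466 and 475 nCPM in beta, 503 and 497 nCPM in alpha and 699 and 675 nCPM in delta cells (BcBKO and flox/flox in each pair), so delta cells remained the highest while beta and alpha cells came close together. In endothelial cells, mural cells and macrophages Abcc8 stood at 23.4% to 40.5% of its beta-cell CPM, above the range of the 6 beta-cell genes there; the cause was not tested. Kcnj11 was almost uncounted, with 41 UMIs in BcBKO-labelled and 30 UMIs in flox/flox beta cells, or 0.352 and 0.25 CPM, and at most 6 UMIs in any other class of a library with barcodes of 1 definition. The files therefore describe the receptor of the beta-cell KATP channel but hardly its pore.

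Kcnj8 reached 92.6 CPM (64 UMIs, interval 71.3 to 118 CPM) in BcBKO-labelled and 51.7 CPM (59 UMIs, interval 39.4 to 66.7 CPM) in flox/flox mural cells, and Abcc9 reached 375 and 275 CPM there. Both were near 1 CPM or below in all 5 other classes. By the full definitions, in which most mural barcodes are also endothelial, Kcnj8 had 59.1 and 34.0 CPM in mural and 27.7 and 16.0 CPM in endothelial barcodes. Kcnj8 was detected in 22.1% of BcBKO-labelled and 15.7% of flox/flox mural cells, against 0.402% and 0.170% of endothelial cells, at median depths of 3611 and 4375 UMIs in mural and 3942 and 4293 UMIs in endothelial cells. Thinned to 3000 UMIs, which left out 54 and 37 mural cells, the mural shares were 18.3% (11.6% to 26.9%, exact binomial) and 12.4% (8.0% to 18.0%).

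The 2 vascular subunits occurred together in part of the mural barcodes, and most barcodes with Abcc9 had no Kcnj8 UMI. Abcc9 was detected in 32 of 36 BcBKO-labelled mural cells with a Kcnj8 UMI (88.9%, 73.9% to 96.9%), against 66 of 127 without one (52.0%, 42.9% to 60.9%). In the flox/flox library it was detected in 24 of 35 (68.6%, 50.7% to 83.1%) against 97 of 188 (51.6%, 44.2% to 58.9%), where the intervals overlap. Median depth was 3683 UMIs with and 3501 UMIs without Kcnj8 in the library labelled BcBKO, and 4192 and 4479 UMIs in the flox/flox library.

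**Figure D1:**
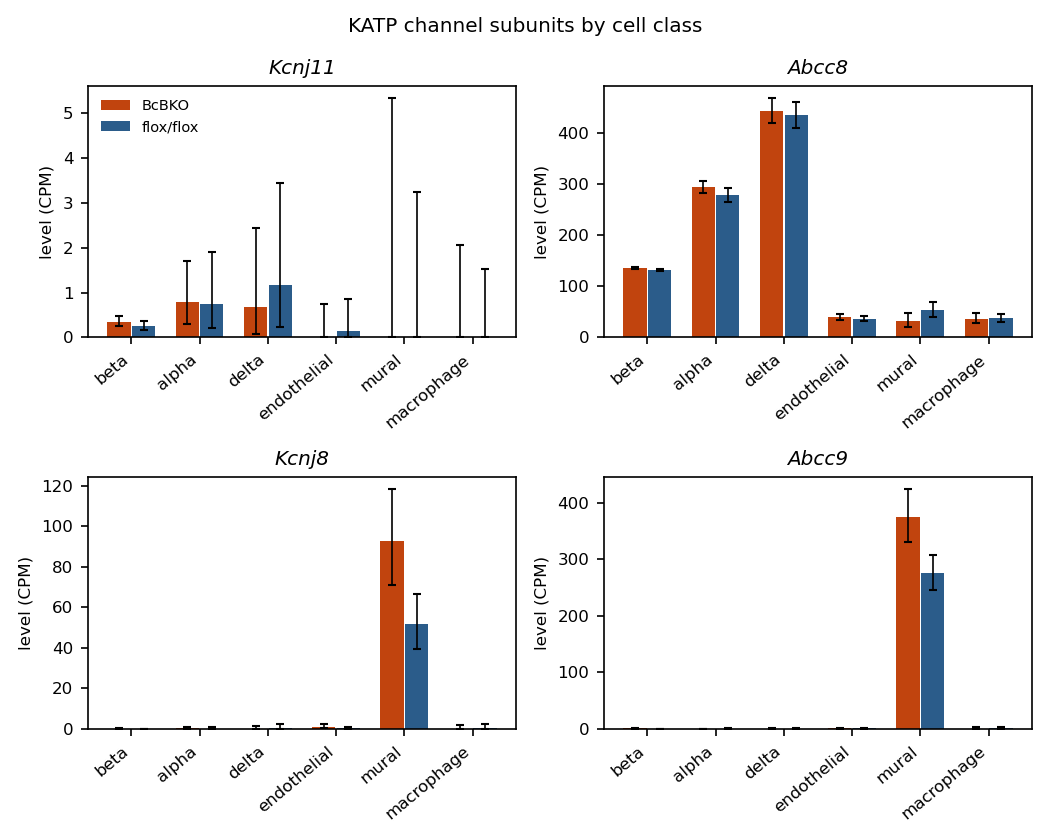
Level of the 4 KATP subunit genes (CPM, linear axes that differ between panels) in 6 classes, with BcBKO-labelled bars left of flox/flox bars and 95% Poisson intervals for counting error; barcodes met 1 definition only. Abcc8 is seen in the 3 endocrine classes, Kcnj8 and Abcc9 in mural cells, and Kcnj11 stays near 1 CPM or below throughout.

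Seen over all classes, more than 50% of the members that passed had their highest level in an endocrine class, and that class was delta more often than beta. By the full definitions 25 members passed a mean of 10 CPM over the 6 classes, and 18 of them had their highest level in beta, alpha or delta cells, against 31.1% of all genes at that level. For barcodes of 1 definition only, 15 of 26 did (26.9% of all genes), of which 13 were highest in delta cells (21.8%), 1 in beta (1.20%) and 1 in alpha cells (3.90%), while 8 were highest in mural cells (32.6%). Of these 26, 10 had an endocrine level at least 2-fold above every non-endocrine class in both libraries (7.62%), 5 had the opposite (31.8%) and 11 had neither. By nCPM, 21 of 26 were highest in an endocrine class (57.0%), with 13 in delta (23.4%) and 7 in beta cells (25.6%). The 7 were Cacna1d, Kcnma1, Trpm4, Trpm5, Atp2a2, Atp2a3 and Atp2b1. With barcodes of 1 definition the 5 members under the minimum were Kcnj11, Kcnk16, Kcnq1, Trpm2 and Ryr2, and by the full definitions Cacna1h was under it too.

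**Figure D2:**
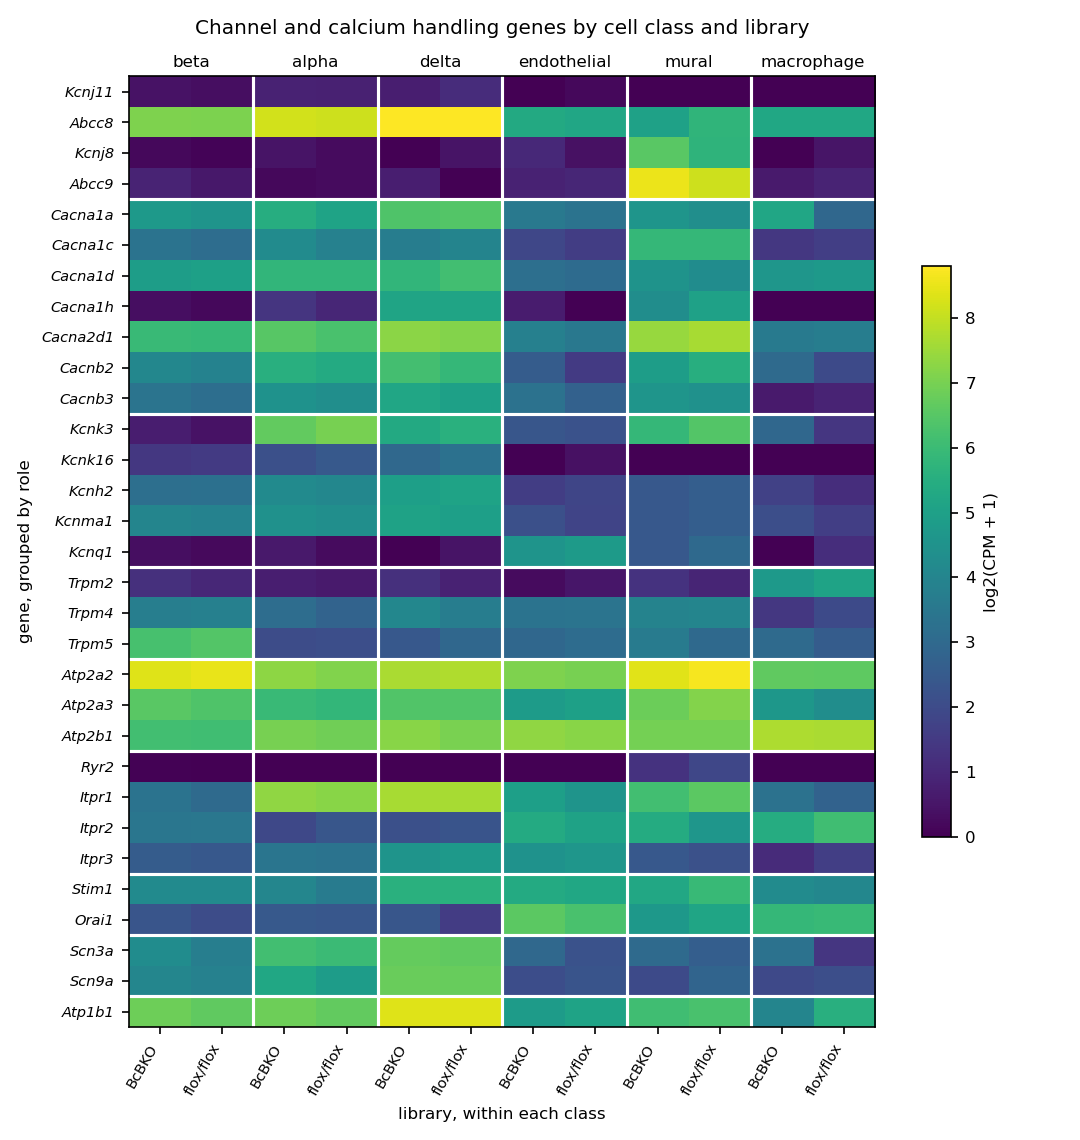
Level of each of the 31 genes, as log2(CPM + 1) by colour, in 6 cell classes, with the library labelled BcBKO left of flox/flox within each class and white lines between roles. Rows such as Trpm5, Kcnk3, Abcc9 and Orai1 light up in different classes, and the 2 columns of a class look alike for most rows.

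Among the voltage-gated calcium channels, every member but Cacna1h passed the minimum of 5 CPM in beta cells. Cacna1d, the pore of the L-type channel Cav1.3, had 28.9 and 31.2 CPM in beta, 54.0 and 53.8 CPM in alpha and 54.4 and 69.3 CPM in delta cells. Cacna1a, the pore of the P/Q-type channel Cav2.1 (chr8:84388440-84640246, plus strand), had 25.5 and 22.4 CPM in beta and 82.8 and 86.5 CPM in delta cells. Cacna1c, the L-type pore Cav1.2 that also serves smooth muscle, had 56.4 and 57.0 CPM in mural cells, against 9.11 and 7.82 CPM in beta cells. Cacna1d was thus an endocrine and Cacna1c a mural gene on both scales, with barcodes of 1 definition.

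Cacna1h, a T-type channel that opens at small depolarisations, separated delta from beta cells. It had 34.5 CPM in BcBKO-labelled and 34.4 CPM in flox/flox delta cells, 1.57 and 0.928 CPM in alpha cells, and 0.266 and 0.133 CPM in beta cells, where it had 31 and 16 UMIs. Mural cells were the other class that held it, with 18.8 and 31.5 CPM from 13 and 36 UMIs. The auxiliary subunits were spread more evenly. Cacna2d1, the alpha2delta subunit that carries channels to the membrane, had 60.8 and 58.7 CPM in beta, 152 and 141 CPM in delta and 174 and 202 CPM in mural cells. The beta subunit genes Cacnb2 and Cacnb3 were highest in delta cells, at 71.6 and 57.2 CPM and at 35.5 and 31.3 CPM.

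The other potassium channels divided by class. Kcnk3, the acid-sensitive background channel TASK-1 (chr5:30588170-30625271, plus strand), had 101 CPM in BcBKO-labelled and 126 CPM in flox/flox alpha cells, against 0.627 and 0.341 CPM in beta cells. Mural cells held 56.4 and 86.8 CPM of it and delta cells 39.2 and 46.6 CPM. Beta cells were thus the class with the least Kcnk3, below endothelial cells (4.06 and 3.69 CPM). Kcnh2, the ERG channel that repolarises after a spike, had 8.25 and 8.55 CPM in beta and 30.4 and 33.3 CPM in delta cells. Kcnma1, the calcium-activated BK channel, had 15.2 and 14.0 CPM in beta and 32.4 and 30.1 CPM in delta cells. By nCPM beta cells led for Kcnma1, so its order among endocrine classes rests on the scale. Kcnh2 and Kcnma1 were both endocrine genes, at under 6 CPM in the 3 other classes. Kcnq1, a slow voltage-gated channel, was an endothelial gene, at 22.3 and 26.7 CPM there and 0.24 and 0.166 CPM in beta cells. Kcnk16, the background channel TALK-1, had 1.69 and 1.82 CPM in beta and 6.76 and 8.61 CPM in delta cells, and at most 2 UMIs in each class outside the endocrine ones.

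The 3 TRPM channels differed in their class pattern. Trpm5, a cation channel opened by intracellular calcium and known from taste cells (chr7:143069153-143094642, minus strand), had 73.6 CPM (8573 UMIs) in BcBKO-labelled and 86.6 CPM (10407 UMIs) in flox/flox beta cells. In every other class it had between 3.15 and 11.6 CPM, which is 3.86% to 15.7% of its beta-cell level. These shares were inside or below the range of the 6 beta-cell genes in the same class and library, except in BcBKO-labelled mural cells, where 8 UMIs gave 15.7% and the range ended at 15.5%. By nCPM the gap was wider, with 253 and 312 nCPM in beta and 5.38 and 5.98 nCPM in alpha cells. Trpm2, a channel gated by ADP-ribose and oxidative stress, was a macrophage gene, at 26.3 and 33.5 CPM there and 1.33 and 0.965 CPM in beta cells. Trpm4, the closest relative of Trpm5, was spread over classes by CPM, at 12.6 and 13.2 CPM in beta, 15.9 and 12.1 CPM in delta and 14.5 and 14.9 CPM in mural cells. By nCPM beta cells led for it, with 43.2 and 47.7 nCPM against 25.04 and 18.8 nCPM in delta and 16.2 and 16.6 nCPM in mural cells.

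The pumps were present in all classes. Atp2a2, the endoplasmic reticulum pump SERCA2, had 329 and 365 CPM in beta cells, 336 and 413 CPM in mural cells and 157 and 141 CPM in alpha cells. Atp2a3, the pump SERCA3, had 92.6 and 81.6 CPM in beta and 113 and 141 CPM in mural cells. With barcodes of 1 definition mural cells led for both by CPM, and beta cells led for both by nCPM, so the order of these classes rests on the scale. Atp2b1, the plasma membrane pump PMCA1, had 208 and 202 CPM in macrophages and 69.2 and 67.8 CPM in beta cells, and beta cells led for it too by nCPM. Atp1b1, the beta subunit of the sodium pump, had 327 and 331 CPM in delta cells against 116 and 99.0 CPM in beta and 114 and 102 CPM in alpha cells, and delta cells led on both scales.

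The 3 IP3 receptor genes had different orders over the classes. Itpr1 (chr6:108213096-108551109, plus strand) had 162 CPM in BcBKO-labelled and 149.8 CPM in flox/flox alpha cells and 199 and 197 CPM in delta cells, against 9.15 and 7.28 CPM in beta cells. The values were 277 and 268 nCPM in alpha and 31.4 and 26.2 nCPM in beta cells, so the scale does not close the gap. Mural cells had 69.4 and 95.5 CPM of it, between alpha and beta cells. Itpr2 (chr6:146108299-146502223, minus strand) had the opposite order among endocrine cells, with 9.95 and 10.1 CPM in beta, 2.75 and 4.08 CPM in alpha and 3.38 and 3.91 CPM in delta cells. Outside them it had 42.6 and 67.8 CPM in macrophages, 41.9 and 23.7 CPM in mural and 40.4 and 32.3 CPM in endothelial cells, so macrophages led in the flox/flox library while the 3 classes lay close together in the library labelled BcBKO. Itpr3 was nearly level between delta cells (22.3 and 26.2 CPM) and endothelial cells (21.3 and 23.8 CPM) and had 4.95 and 4.36 CPM in beta cells. Ryr2, the ryanodine receptor of heart muscle, had 3 UMIs in BcBKO-labelled and 1 UMI in flox/flox beta cells, which is no more than the 3 counts that a count of 0 allows. By CPM beta cells thus held all 3 IP3 receptor genes at low levels, and Ryr2 was not detectable in them at this depth. For Itpr2 the scale matters. Its highest non-endocrine class was at least 2-fold above every endocrine class in both libraries by CPM, but not by nCPM.

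Of the genes for store-operated entry, the sensor and the channel differed in delta cells. Stim1, the calcium sensor in the endoplasmic reticulum, had 37.6 and 59.6 CPM in mural, 46.6 and 47.0 CPM in delta, 40.2 and 36.4 CPM in endothelial, 17.4 and 17.7 CPM in beta and 15.3 and 11.7 CPM in alpha cells, and 17.9 and 15.7 CPM in macrophages. Orai1, the channel it opens (chr5:123015074-123030456, plus strand), had 93.6 and 75.6 CPM in endothelial cells and 56.6 and 59.6 CPM in macrophages, against 4.02 and 3.13 CPM in beta, 4.46 and 4.27 CPM in alpha and 4.05 and 1.96 CPM in delta cells. By CPM Orai1 was thus low in all 3 endocrine classes, whereas Stim1 was low in alpha and beta but not in delta cells. By nCPM Stim1 had 59.8 and 63.8 nCPM in beta against 42.1 and 66.6 nCPM in mural cells, so its low place in beta cells holds by CPM alone, while Orai1 had 13.8 and 11.3 nCPM in beta against 103 and 82.2 nCPM in endothelial cells. Orai3, another channel of this family and not a member, had 13.4 and 13.6 CPM in beta cells of the 2 libraries.

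The sodium channels Scn3a and Scn9a, pores of Nav1.3 and Nav1.7 that drive fast spikes, were highest in delta cells. Scn3a (chr2:65457118-65567627, minus strand) had 105 and 98.6 CPM in delta, 69.2 and 62.2 CPM in alpha and 18.2 and 12.7 CPM in beta cells. Scn9a had 109.8 and 106 CPM in delta, 36.7 and 27.8 CPM in alpha and 15.5 and 13.6 CPM in beta cells. The order delta, alpha, beta held for both genes in both libraries, and by nCPM Scn3a had it too, while Scn9a stood at 62.7 and 49.8 nCPM in alpha and 53.3 and 49.1 nCPM in beta cells.

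**Figure D3:**
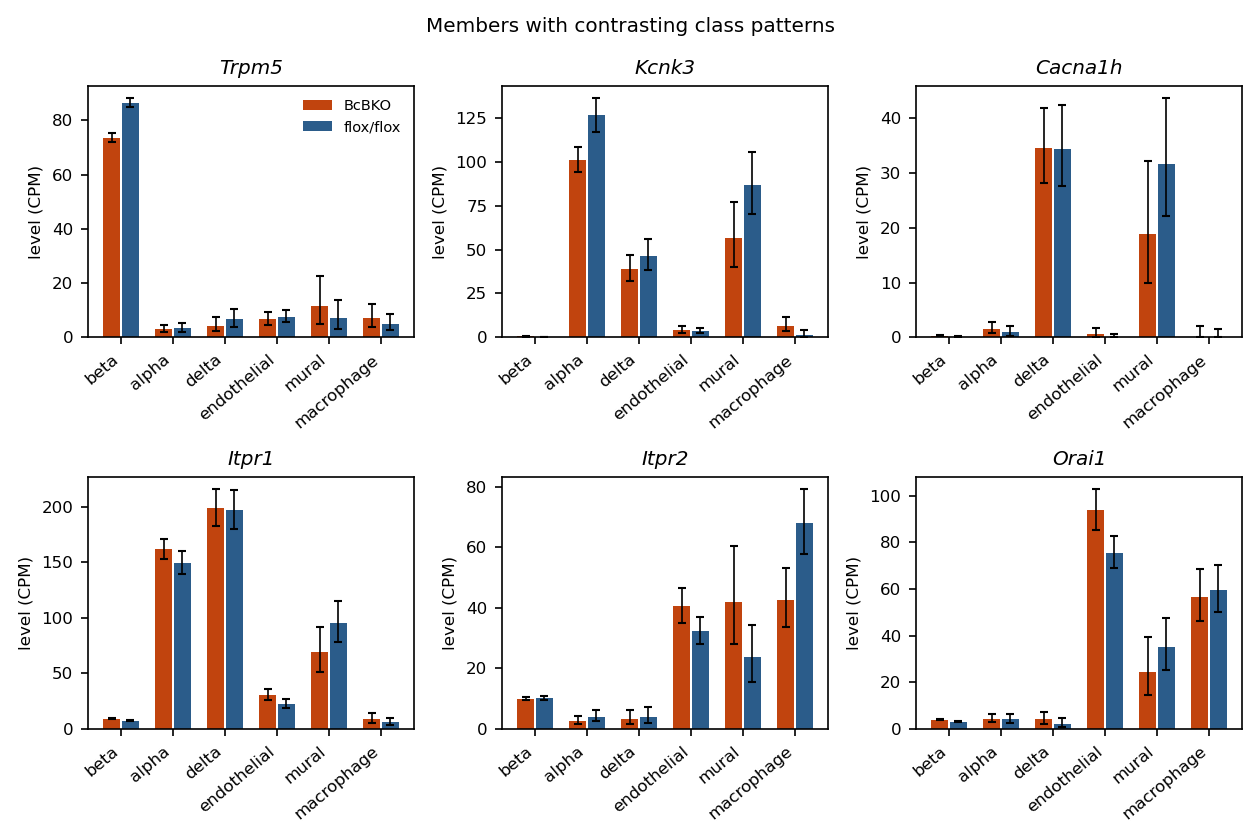
Level (CPM, linear axes that differ between panels) of 6 members in 6 classes, with BcBKO-labelled bars left of flox/flox bars and 95% Poisson intervals for counting error; barcodes met 1 definition only. Trpm5 stands in beta cells, Kcnk3 in alpha and mural cells, Cacna1h in delta and mural cells, Itpr1 in alpha and delta and, lower, in mural cells, Itpr2 in macrophages and vessels, and Orai1 in endothelial cells and macrophages.

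Between the 2 libraries the beta-cell levels of most members lay close together. Of the 31 genes, 20 passed a mean of 5 CPM in beta cells, and 11 did not (Kcnj11, Kcnj8, Abcc9, Cacna1h, Kcnk3, Kcnk16, Kcnq1, Trpm2, Ryr2, Itpr3 and Orai1). Past a log2 ratio of 0.25 for BcBKO over flox/flox, taken on CPM plus 1, 2 members were higher and 0 were lower, against 6.10% and 1.82% of 7576 genes at that level. The median log2 ratio was 0.08 over the 20 members and 0.05 over all genes, and 13 of 20 members and 69.2% of all genes were above 0. The members' count is near that background.

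Scn3a was the member with the largest ratio, with 18.2 CPM (2123 UMIs) in BcBKO-labelled beta cells against 12.7 CPM (1527 UMIs) in flox/flox beta cells, a log2 ratio of 0.49 (0.40 to 0.58). It stayed past 0.25 under each of the alternatives that kept it, at 0.39 to 0.56. By the full definitions its log2 ratio was 0.12 (-0.06 to 0.30) in alpha and -0.03 (-0.24 to 0.19) in delta cells, and whether the classes differ was not tested. Itpr1 had 9.15 CPM (1065 UMIs) against 7.28 CPM (875 UMIs) in flox/flox beta cells, a log2 ratio of 0.29 (0.18 to 0.41). It came under 0.25 with TMM scaling (0.22), a pseudocount of 5 CPM (0.20) and in beta cells with under 0.1% each of Gcg, Sst and Ppy (0.22), an alternative added after the data were seen. Alpha markers summed to 1507 CPM in BcBKO-labelled and 1307 CPM in flox/flox beta cells and delta markers to 132.9 and 96.1 CPM, and their part in the Itpr1 ratio is measured only by that last alternative.

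Trpm5 leaned the other way, with 73.6 CPM in BcBKO-labelled against 86.6 CPM in flox/flox beta cells and a log2 ratio of -0.23 (-0.27 to -0.19). It passed -0.25 with TMM scaling (-0.31) and with totals free of hormone and mitochondrial genes (-0.30). Atp2a2 had a log2 ratio of -0.15 (-0.17 to -0.13) and Cacna1d of -0.11 (-0.17 to -0.04), while Atp1b1 had 0.23 (0.19 to 0.26), Atp2a3 0.18 (0.14 to 0.22) and Cacna1a 0.18 (0.11 to 0.26). All these intervals leave out 0, and none of these ratios reached 0.25. Abcc8 was nearly the same in both libraries, at a log2 ratio of 0.04 (0.01 to 0.07), and Cacna2d1 and Atp2b1 likewise at 0.05 (0.00 to 0.10) and 0.03 (-0.01 to 0.07); these 3 changed sign with TMM scaling and with totals free of hormone and mitochondrial genes. Of the markers of other cells, 7 acinar genes summed to 19.7 CPM in BcBKO-labelled and 122.8 CPM in flox/flox beta cells, and macrophage markers to 63.3 and 39.1 CPM, and their part in these ratios was not tested.

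**Figure D4:**
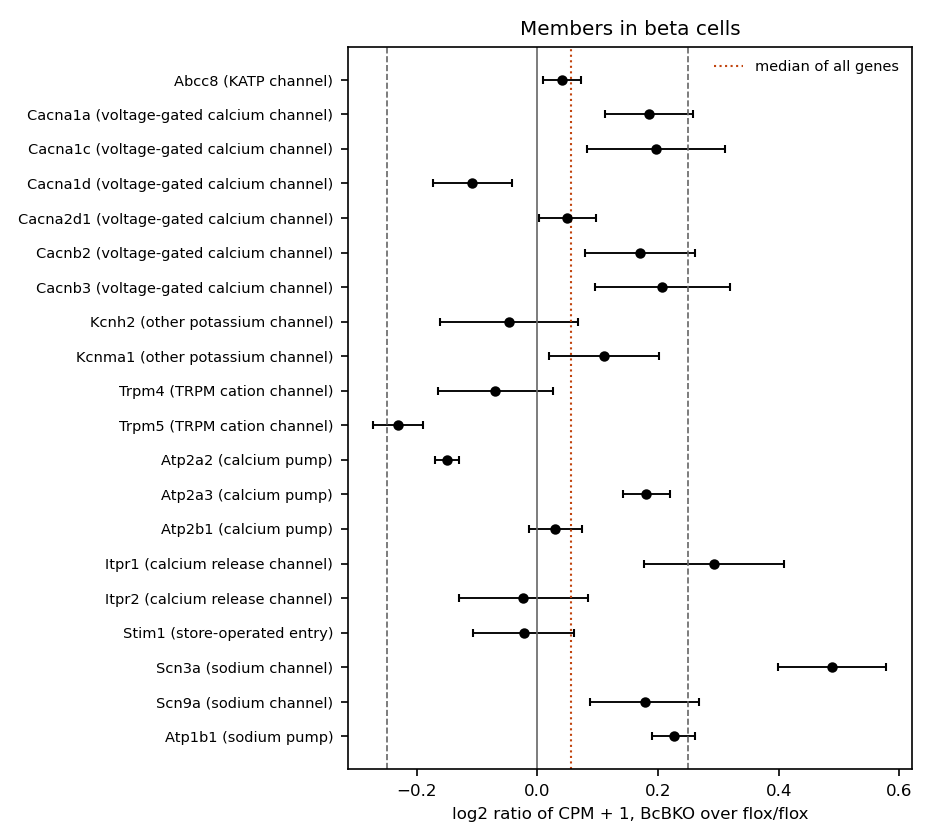
Log2 ratio of CPM plus 1, BcBKO over flox/flox, in beta cells for the 20 members that passed 5 CPM, with 95% exact conditional intervals for counting error; dashed lines mark 0.25 on either side and the dotted line the median of all genes. Scn3a and Itpr1 lie to the right of the dashed line, Trpm5 is the member farthest to the left, and the rest lie between the lines.

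In the other classes some members were past 0.25, on fewer UMIs than in beta cells and mostly with wider intervals. By the full definitions at 20 CPM or more, alpha cells had 2 of 15 members higher (14.8% of all genes) and 1 lower (1.90%). The 2 were Cacna1a, at a log2 ratio of 0.28 (0.06 to 0.51), and Scn9a, at 0.31 (0.06 to 0.56), and neither passed with TMM scaling. Kcnk3 was the lower one, with 95.1 CPM in BcBKO-labelled against 122 CPM in flox/flox alpha cells and a log2 ratio of -0.36 (-0.50 to -0.22). It was also lower in mural cells, at -0.33 (-0.63 to -0.04), and with barcodes of 1 definition only the ratios were -0.32 (-0.47 to -0.17) in alpha and -0.61 (-1.18 to -0.07) in mural cells. Delta cells had 1 of 19 higher (8.80%), which was Cacnb2 at 0.35 (0.08 to 0.62), and 2 lower (11.1%), which were Cacna1d at -0.32 (-0.59 to -0.05) and Kcnh2 at -0.27 (-0.65 to 0.11).

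In mural cells 3 of 14 members were higher (4.87%) and 1 was lower (9.80%). Kcnj8 had a log2 ratio of 0.78 (0.56 to 1.01), Abcc9 of 0.27 (0.16 to 0.38) and Itpr2 of 0.27 (0.04 to 0.50). With barcodes of 1 definition only, Kcnj8 was at 0.83 (0.30 to 1.35) and Abcc9 at 0.44 (0.20 to 0.69), but there 9 of 19 members were lower and 4 higher (24.5% and 23.3% of all genes), at a median of -0.21 over the members and -0.00273 over all genes. Markers within those mural barcodes also differed, with Acta2 of contractile cells at 3205 CPM in BcBKO-labelled and 4819 CPM in flox/flox cells, Tagln at 2737 and 3690 CPM and Col1a1 of fibroblasts at 255 and 35.1 CPM, while Notch3 was at 719 and 693 CPM. Their part in the Kcnj8 and Abcc9 ratios was not tested. Endothelial cells had 3 of 13 members higher (3.42%) and 0 lower (7.19%). Kcnj8 was 1 of the 3, and it passed the mean of 20 CPM only through its level in the library labelled BcBKO. Most of its UMIs there lay in barcodes that also met another definition. Orai1 was at 0.28 (0.14 to 0.41) by the full definition and 0.31 (0.12 to 0.49) with 1 definition. Abcc8 was at 0.14 (-0.13 to 0.41) with 1 definition and Kcnj8, with 5 and 2 UMIs, was under the minimum there. Macrophages had 2 of 13 higher (8.48%), Abcc8 and Cacna1a, and 3 lower (26.5%), Trpm2, Itpr2 and Atp1b1. With barcodes of 1 definition Abcc8 was at -0.01 (-0.48 to 0.45) and no longer past 0.25. The direction of Atp1b1 rested on 1 flox/flox barcode: by the full definition it had 44.1 CPM in BcBKO-labelled and 61.1 CPM in flox/flox macrophages, and 38.1 and 33.7 CPM when the barcode with the most Atp1b1 UMIs was left out of each library, a step added after the data were seen.

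Within beta cells, 5 members differed with the share of insulin transcripts in both libraries. This split was added after the data were seen. In each library the 25% of beta cells with the lowest share of Ins1 and Ins2 (insulin-low) were set against the 25% with the highest (insulin-high) by nCPM, with 765 BcBKO-labelled and 688 flox/flox cells on each side. The sides are ranges of a continuous share with medians of 54.9% against 67.5% in the library labelled BcBKO and 58.6% against 68.9% in the flox/flox library, and 299 to 505 cells lay within 1 percentage point of a limit. Of 23 members at 5 nCPM or more, 3 were higher past 0.25 in insulin-low cells of both libraries (10.5% of all genes), 2 were lower (4.54%) and 18 were neither. The count of higher members is near that background, and that of lower ones rests on 2 genes.

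Trpm5 followed insulin. It had 169 nCPM in insulin-low against 339 nCPM in insulin-high cells labelled BcBKO, and 210.0 against 392 nCPM in flox/flox cells, log2 ratios of -0.999 and -0.90. Atp2a3 was the other lower member, at -0.39 and -0.32. The beta-cell genes Slc2a2 (glucose transporter 2), at -0.58 and -0.49, and G6pc2 (glucose-6-phosphatase 2), at -0.35 and -0.36, were lower as well. Only these were taken from the list of beta markers, so they do not show how the others moved. Of the members that passed the minimum, those higher in insulin-low cells were the 3 IP3 receptors, Itpr1 at 0.68 and 0.78, Itpr2 at 0.46 and 0.34 and Itpr3 at 0.59 and 0.61. Of the 8 members under the minimum, 6 were also higher past 0.25 in both libraries, namely Abcc9 (2.92 and 2.02), Kcnq1 (1.56 and 1.12), Kcnk3 (0.85 and 0.81), Trpm2 (0.51 and 0.81), Kcnj8 and Cacna1h. The share of all genes under the minimum that did so was not taken, so this count has no background. Counting intervals included 0 for Kcnj8 (-0.16 to 1.05 and -0.04 to 0.68) and Cacna1h (-0.34 to 1.10 and -0.31 to 0.91). That of Trpm2 did so in the library labelled BcBKO (-0.04 to 1.07). These 6 members had their highest levels in mural, endothelial, alpha or delta cells or macrophages. Not every member highest outside beta cells by CPM did the same. Orai1 was at -0.08 and 0.31, Cacna1c at 0.01 and 0.24, Scn3a at -0.05 and 0.07 and Scn9a at -0.12 and 0.24. Their levels in insulin-high cells were 10.7 to 67.3 nCPM, against 3.85 nCPM or less for the 6 members under the minimum. The part of RNA from other cells in these ratios was not tested.

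Other measures moved with the insulin share. Median depth was 26865 UMIs in insulin-low against 38499 UMIs in insulin-high cells labelled BcBKO, and 32347 against 43394 UMIs in flox/flox cells. In insulin-low against insulin-high cells, endothelial markers summed to 477 against 53.3 nCPM (BcBKO) and 527 against 63.6 nCPM (flox/flox), and macrophage markers to 466 against 74.3 nCPM (BcBKO) and 385 against 43.6 nCPM (flox/flox). Sst stood at 1155 against 518 nCPM (BcBKO) and 557 against 165.5 nCPM (flox/flox). In beta cells with under 0.1% each of Gcg, Sst and Ppy, Sst stood at 269 against 282 nCPM (BcBKO) and 166.5 against 166.1 nCPM (flox/flox), and all 5 members above the minimum stayed past 0.25 (10.4% of all genes were higher and 4.71% lower), with Itpr1 at 0.47 and 0.61 and Trpm5 at -0.99 and -0.84. Abcc9, Kcnq1, Trpm2 and Kcnj8 of the members under the minimum stayed higher there as well. The intervals again included 0 for Kcnj8 in both libraries and for Trpm2 in the library labelled BcBKO. Kcnj11, also under the minimum, was lower there at -0.37 (-1.09 to 0.42) and -0.47 (-1.03 to 0.33). Endothelial and macrophage markers still differed in those cells, and their part in the IP3 receptor ratios was not tested.

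**Figure D5:**
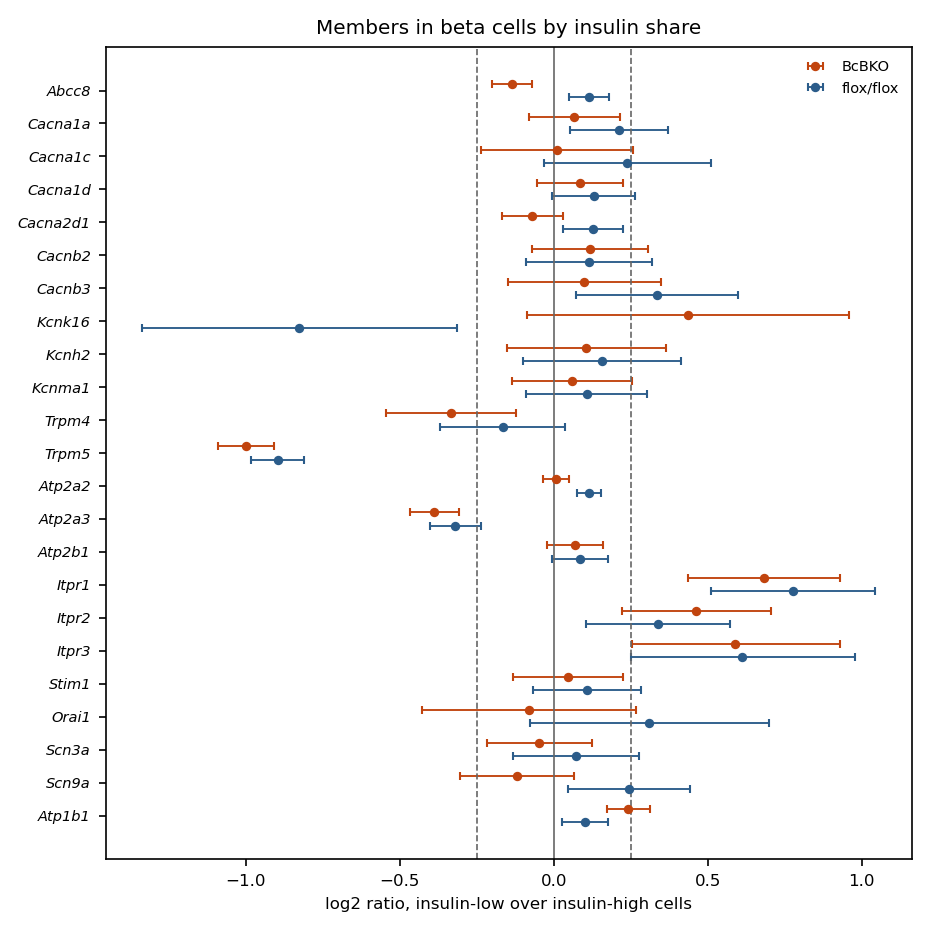
Log2 ratio of nCPM in insulin-low over insulin-high beta cells for the 23 members at 5 nCPM or more, with BcBKO-labelled cells above flox/flox cells in each row and 95% intervals for counting error. Trpm5 and Atp2a3 lie left of the dashed line at -0.25 in both libraries, Itpr1, Itpr2 and Itpr3 lie right of that at 0.25, and Kcnk16 has its 2 libraries on opposite sides.

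Other genes of these pathways were listed by function (82 symbols, 80 in the files), and 34 of them passed 5 CPM in beta cells. As with the members, few were past 0.25, with 2 higher and 1 lower, and their median log2 ratio was 0.05. The higher ones were S100a6, a calcium-binding protein, with 13.1 and 8.59 CPM in BcBKO-labelled and flox/flox beta cells (log2 ratio 0.56), and Camk2d, a calcium/calmodulin-dependent kinase, with 17.8 and 13.4 CPM (0.39). Stim2, a second calcium sensor of the endoplasmic reticulum, was the lower one, with 10.7 and 14.2 CPM (-0.38). The store-operated genes thus had Stim1 at -0.02 (-0.11 to 0.06) and Saraf, a brake on this entry, at 0.05 beside the lower Stim2. None of the 6 potassium channels and 3 TRP or purinergic channels that passed was past 0.25. Calr, a calcium store of the endoplasmic reticulum, came closest at 0.24.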

How the data were processed

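Single-cell RNA was measured in 1 library labelled BcBKO and 1 flox/flox library. The authors deposited counts of UMIs for each gene and barcode as whole numbers, not normalised, with totals of 178647270 and 167670996. Per the submitters' processing notes, Cell Ranger 3.1.0, Seurat 4.0.0 and mm10 were used, while the deposited matrix header names cellranger 6.1.2; which made the counts was not settled. The gene annotation and the use of strand in counting are not given in the sources used here; 17 members have a counted gene on the other strand within their span and 0 on the same strand.

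Barcodes with at least 500 genes and 1000 UMIs and at most 20% mitochondrial UMIs were kept. Beta cells had Ins1 and Ins2 at 25% or more of UMIs, at least 10000 UMIs, and Gcg, Sst and Ppy under 1% each. With insulin under 15%, alpha cells had Gcg at 10% or more, delta cells Sst at 5% or more, and endothelial (Plvap and Cdh5), mural (Rgs5 and Pdgfrb) and macrophage (C1qa and C1qb) barcodes at least 3, 5 and 5 UMIs. In all, 2419 and 1747 kept barcodes met no definition. Doublets were kept, and Scrublet (scanpy 1.11.5, rate 8%) marked 2.08% and 2.25%. UMIs were summed per class and library. The log2 ratio was taken on CPM plus 1 CPM, with exact conditional intervals, for genes at a mean of 5 CPM (beta) or 20 CPM (other classes). The interval code was tested on simulated data. Positions came from GENCODE M21 (GRCm38, the build mm10), which holds 28339 of the 28692 identifiers and all 31 members; promoters came from RefSeq (GRCm38.p6), with an entry for 21 members. All 31 members are named; values are in full for those at 20 CPM or more in any class, and further pathway genes are those past 0.25 or used to place a member, and those used to place a member were chosen after their values were seen. The members, lists and thresholds were chosen with earlier results of these data known. TMM factors came from edgeR 4.0.16 in R 4.3.3, and the rest was done in Python 3.11.15 with pandas 2.3.3, numpy 2.4.6, matplotlib 3.10.9 and scipy 1.17.1.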

Additional observations from a re-analysis of the deposited data

Results flagged for a closer look

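Itpr2 leaned one way in vessel cells and the other way in macrophages between the library labelled BcBKO and flox/flox. By the full definitions its log2 ratio was 0.27 in mural cells and -0.49 in macrophages, which differ by 0.77. With barcodes of 1 definition only, endothelial cells (0.32) differed from macrophages (-0.66) by 0.98, and mural cells (0.80) from macrophages by 1.46. With 1 library per group each sign rests on 1 value per genotype, and these differences were not tested.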

How the results depend on the processing

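No paired analysis was possible because each genotype has 1 pooled library and no test was made. Of 269 recomputed beta-cell log2 ratios of the 20 members, 241 stayed within the limits set, 28 moved beyond them, and 0 of those past 0.25 changed sign. Of smaller ones, Itpr2 and Stim1 changed sign with each cell weighing the same (0.03 and 0.02), Kcnh2 and Trpm4 in thinned cells (0.12 and 0.03), and Abcc8, Cacna2d1 and Atp2b1 with TMM scaling and without hormone and mitochondrial totals. The 2 higher members in beta cells became 1 with TMM scaling, 1 with a pseudocount of 5 CPM, 5 with no minimum level, 0 at a minimum 4 times as high, 6 in thinned cells and 1 in cells with under 0.1% of other hormones; the 0 lower members became 1 with TMM scaling and 1 without hormone and mitochondrial totals. TMM scaling moved the members' median from 0.0799 to 0.00213 and that of all genes from 0.055 to -0.021, and the share above 0 from 65% to 50% of members and from 69.2% to 42.4% of all genes; without hormone and mitochondrial totals these shares were 52.2% and 48.0%. In alpha cells the 2 higher members became 0 (TMM), 9 (no minimum), 0 (minimum 4 times as high) and 4 (each cell weighing the same), and the 1 lower became 2 (no minimum). Of other pathway genes, the 2 higher became 4 (without hormone totals), 5 (no minimum), 0 (minimum 4 times as high) and 4 (thinned), and the 1 lower became 4 (without hormone totals), 3 (no minimum) and 0 (minimum 4 times as high). Endocrine-highest members went to 6, of 8 left, at a minimum 4 times as high, against 18. The share of all genes was not taken under the settings named for these counts, so the counts have no background beside them. Members tested in beta cells were 31 with no minimum, 9 at a minimum 4 times as high and 21 in thinned cells. Higher minimums and no minimum test fewer or more genes. For the other settings the cause was not tested. Outside beta cells depth limits the values: mural cells of 1 definition held 691360 and 1141210 UMIs, where 3 counts are 4.34 and 2.63 CPM.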

Other observations

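Cacna1a was counted in macrophages of 1 library more than of the other. BcBKO-labelled macrophages held 64 UMIs (35.8 CPM) and flox/flox macrophages 16 UMIs (6.62 CPM), a log2 ratio of 2.27 (1.54 to 3.04) with barcodes of 1 definition and of 1.29 by the full definition. After thinning to 3000 UMIs, 11.4% (8.11% to 15.4%) of BcBKO-labelled and 2.27% (1.04% to 4.26%) of flox/flox macrophages had a Cacna1a UMI, against 2.92% and 2.06% of endothelial cells; unthinned shares in macrophages were 13.9% and 3.32%. No single barcode held more than 5 of the 64 UMIs. Cacna1a had 25.5 and 22.4 CPM in beta cells of these libraries, so by CPM the BcBKO-labelled macrophage level was above that of its own beta cells. Hormone and mitochondrial genes took 70.9% of UMIs in BcBKO-labelled beta cells but 9.85% in these macrophages. By nCPM Cacna1a stood at 89.8 and 85.7 in insulin-low and insulin-high BcBKO-labelled beta cells, so this order holds by CPM alone. The cause of the difference between the libraries was not tested.

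Atp1b1 outside endocrine cells was concentrated in single barcodes, in some classes more than in others. In macrophages 1 barcode held 6 of its 27 UMIs (BcBKO) and 85 of 110 UMIs (flox/flox), in mural cells 35 of 47 UMIs (BcBKO) and 40 of 88 UMIs (flox/flox), and in endothelial cells 42 of 134 and 67 of 216 UMIs, so most endothelial UMIs lay in other barcodes. Without that barcode of each library, macrophages of 1 definition had 12.2 CPM (BcBKO) and 10.5 CPM (flox/flox), against 15.1 and 45.5 CPM with it. Scn3a in BcBKO-labelled macrophages had 8 of 16 UMIs in 1 barcode.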
